A study of Homo sapiens with 9 samples.

Results

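The genes described here are 60 genes of the long arm of chromosome 21 (21q), listed by position along the arm and not by their own change. The arm itself was chosen by the fold changes of its genes in the OGT_KO libraries of this study. Its OGT_KO values, and counts of calls in the fit over all genes, are therefore given below as a description and not as a test. The deposited table of 19257 genes held 197 genes of 21q. Of the 60 listed genes, 58 had a row in it, and TIAM1 and HUNK were not analysed here. The filter on low counts kept 57 of them, together with 61 other 21q genes. PDE9A, a phosphodiesterase that degrades cyclic GMP, was left out by the filter, with a single read in 1 TR11B_KO library and 0 in the other 8.

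All 9 libraries came from bulk RNA of A549, an established human lung adenocarcinoma line grown in DMEM with fetal bovine serum. NC cells received the empty Lenti-CRISPR-V2 plasmid, which delivers Cas9 without a targeting guide. OGT_KO cells received the same plasmid directed at OGT, the transferase of O-GlcNAc, a sugar mark on proteins of the nucleus and cytosol. TR11B_KO cells received one directed at TR11B, taken here to be TNFRSF11B, the gene of the decoy receptor osteoprotegerin. Each group had 3 libraries, and the NC libraries serve both comparisons. The titles speak of biological replicates but no label names separate cultures, and the p-values therefore reflect only the scatter among these libraries, which may be technical. The columns of each knockout carry 1 guide or clone name, so the effect of a clone or guide cannot be told apart from that of the knockout.

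The number of copies of a chromosome arm usually sets the level of many of its genes together, as trisomy of chromosome 21 in Down syndrome shows. A549 is aneuploid, and subclones of such lines can differ in the copies of whole arms. DNA copy number was not measured in these libraries. Genes of 21q include a cluster of cytokine receptors, the superoxide dismutase SOD1, the amyloid precursor APP, proteins of folate and sulfur amino acid metabolism, and a group of factors for ribosome assembly and RNA processing.

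Library totals lay between 38327508 and 42245970 counts. TR11B_KO replicate 2 stood apart, with a TMM scaling factor of 0.784 against 0.951 to 1.159 in the others. OGT itself was at 29.6, 26.9 and 24.7 CPM (counts scaled to the library total, with TMM factors) in NC, 21.1, 28.3 and 22.9 in the libraries labelled OGT_KO, and 17.04, 11.5 and 12.4 in those labelled TR11B_KO. Its mRNA thus overlapped between NC and OGT_KO (log2 fold change −0.17). In every TR11B_KO library it lay below NC (−0.99, edgeR adjusted p = 0.00393). NC libraries held 13, 15 and 3 reads of TNFRSF11B. OGT_KO libraries held 1, 0 and 0, and TR11B_KO libraries 3, 1 and 0. These mRNA levels do not check the edits, and every direction below rests on the labels. Of 8 epithelial markers of the line, KRT7, KRT8 and KRT18 were abundant, and CDH1 and EPCAM, which mark epithelial cells, were at or near 0. The 4 markers tested had log2 fold changes from −0.99 to 0.40 in OGT_KO, and 1 of them lay above NC in every OGT_KO library. Of the 4, 2 were called lower and 0 higher, beside 10.1% and 8.26% of all tested genes. KRT8 was the lowest, at −0.99 (edgeR adjusted p = 0.00185). The call of KRT18 was lost without NC replicate 3 or OGT_KO replicate 2. AKR1B10 and AKR1C1, aldo-keto reductases known to be high in this line, had at most 6 counts. Endothelial markers had at most 10 counts in any library and fibroblast markers at most 34. Of the blood markers analysed, CD14 and LYZ had at most 10 counts and CD68 112 to 269.

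In OGT_KO the listed genes lay below their NC level as a group, with a median log2 fold change of −0.45 where the median of all 12574 tested genes was 0.03. Single listed genes ranged from −1.79 to 0.75, so the label of a lowered arm described the group and not each gene. Of the 57 tested, 45 were below 0, against 47.9% of all tested genes, and 27 were below −0.5, against 19.4%. All 3 OGT_KO libraries lay below all 3 NC libraries for 31 of the 57 (25.6% of all tested genes did so), and above them for 3, SYNJ1, SON and GET1 (24.2% of all tested genes). In the fit over all genes, 17 of the 57 carried a lower call and 0 a higher call at an adjusted p under 0.05, beside 10.1% and 8.26% of all tested genes. These shares describe the columns that chose the arm. In bulk RNA, less of a transcript in every cell and fewer cells that carry it cannot be told apart.

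Each OGT_KO library showed the shift. The median deviation of the listed genes from the NC mean was −0.41, −0.31 and −0.51 in OGT_KO replicates 1, 2 and 3, and 0.03, 0.04 and −0.06 (log2) in the NC replicates. It was 0.02, −0.32 and −0.13 in TR11B_KO, where replicate 2 was the lowest. The 3 OGT_KO libraries and TR11B_KO replicate 2 lay below the other libraries, and the NC medians lay close to 0. All 21q rows together took 0.553% ± 0.0111 (SD, n = 3) of the counts in NC, 0.387% ± 0.0156 in OGT_KO and 0.576% ± 0.0347 in TR11B_KO. The OGT_KO shares, 0.375%, 0.404% and 0.381%, did not overlap those of NC, 0.562%, 0.557% and 0.541%.

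**Figure D1:**
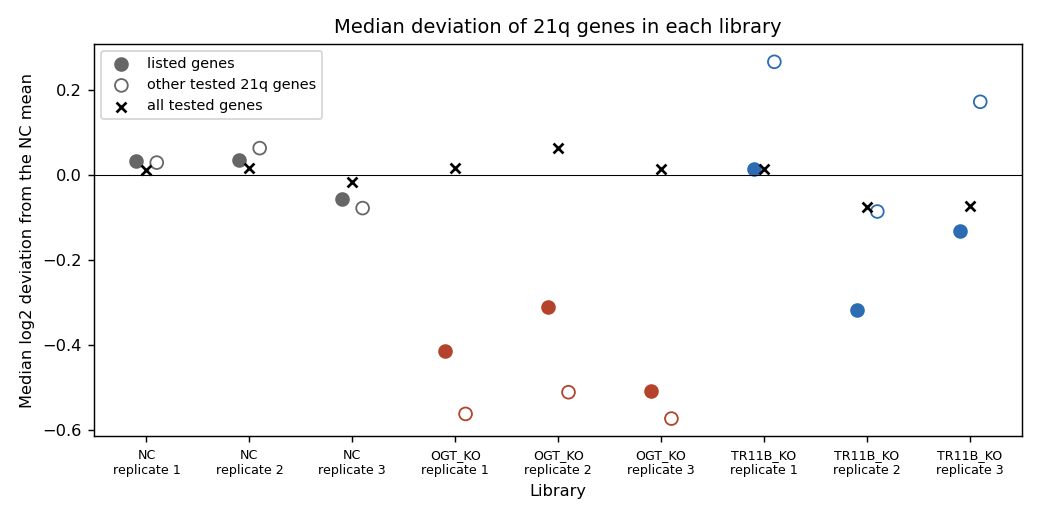
Median log2 deviation from the NC mean (vertical axis) in each of the 9 libraries (horizontal axis) for the listed 21q genes (filled), the other tested 21q genes (open) and all tested genes (crosses). The OGT_KO libraries have listed-gene medians of −0.41, −0.31 and −0.51, while their medians over all tested genes stay near 0.

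The listed genes were not set apart from their neighbours on the arm. The other 61 tested 21q genes had a median of −0.56 in OGT_KO, and 48 of them were below 0. Over all 118 tested 21q genes the median was −0.52, the lowest of the 41 chromosome arms with at least 20 tested genes. The arm was picked for its shift in these same columns, so this rank only describes that choice. The next lowest were 2p at −0.23, 19q at −0.23 and 22q at −0.20, and the highest was 18q at 0.42. For more abundant genes (mean log2 CPM 2 or more) the 21q median was −0.68 over 64 genes, also the lowest, before 2p at −0.42. In TR11B_KO 21q was in the middle of the arms, with a median of −0.01 at rank 23 of 41. The lowest arm there was 13q at −0.67, which stood at 0.13 in OGT_KO.

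**Figure D2:**
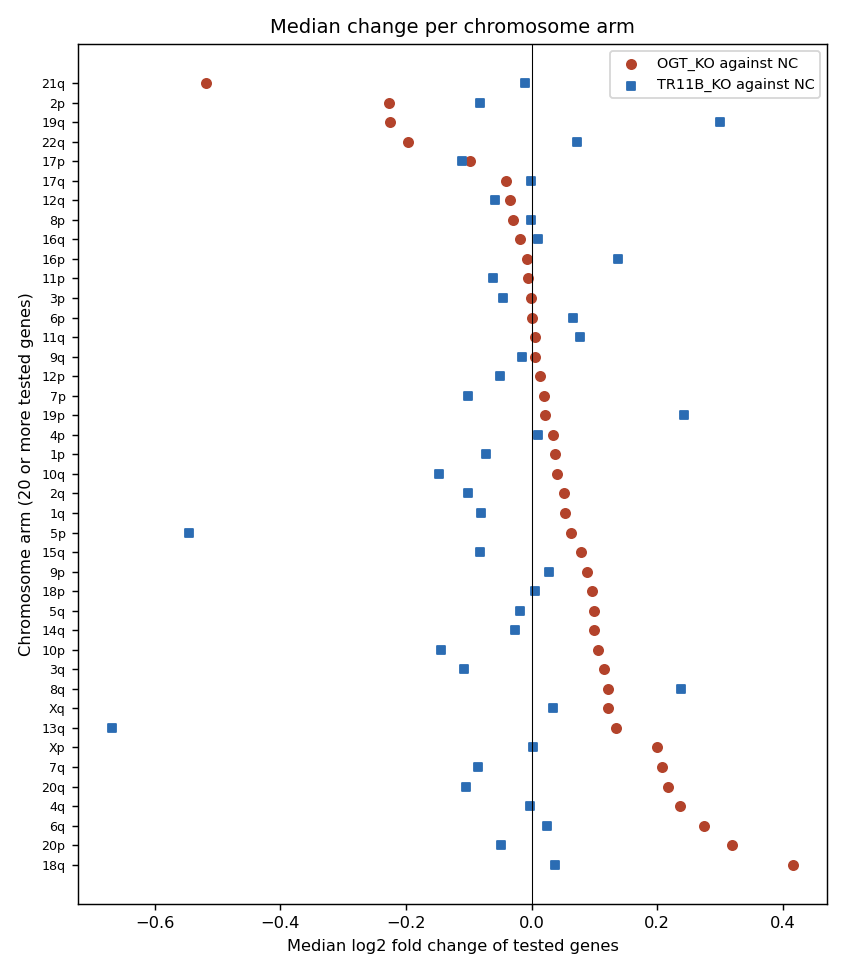
Median log2 fold change of the tested genes (horizontal axis) for each of 41 chromosome arms (vertical axis), in OGT_KO against NC (circles) and TR11B_KO against NC (squares). The 21q circle lies at −0.52, apart from the next arm at −0.23, and the 21q square lies at −0.01.

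The values were spread along the arm, with lower medians toward its end. With the 118 genes divided by position, the 39 nearest the centromere had a median of −0.30 in OGT_KO, the middle 39 had −0.54 and the 40 nearest the telomere had −0.73. The listed genes alone gave −0.16, −0.42 and −0.62 for 18, 20 and 19 genes. All OGT_KO libraries were below all NC libraries for 6, 9 and 16 of them, beside 25.6% of all tested genes. That share depended on level. It was 2608 of 7021 tested genes at a mean log2 CPM of 2 or more, and 606 of 5553 under it. Genes near the telomere also had a higher GC content (median 57.5% against 43.2% near the centromere) and a higher level (median average log2 CPM 3.85 against 1.36). Across the listed genes, Spearman's rho of the OGT_KO fold change was −0.46 with GC content and −0.39 with the average level, and −0.16 with position. Over all tested genes rho was −0.24 with GC content and −0.29 with level. These are correlations across genes, which are not independent replicates, and position, GC content and level moved together. With an offset for GC content in the fit, chosen after seeing the data, the 21q median was −0.49 and still the lowest of the arms, before 2p at −0.34.

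**Figure D3:**
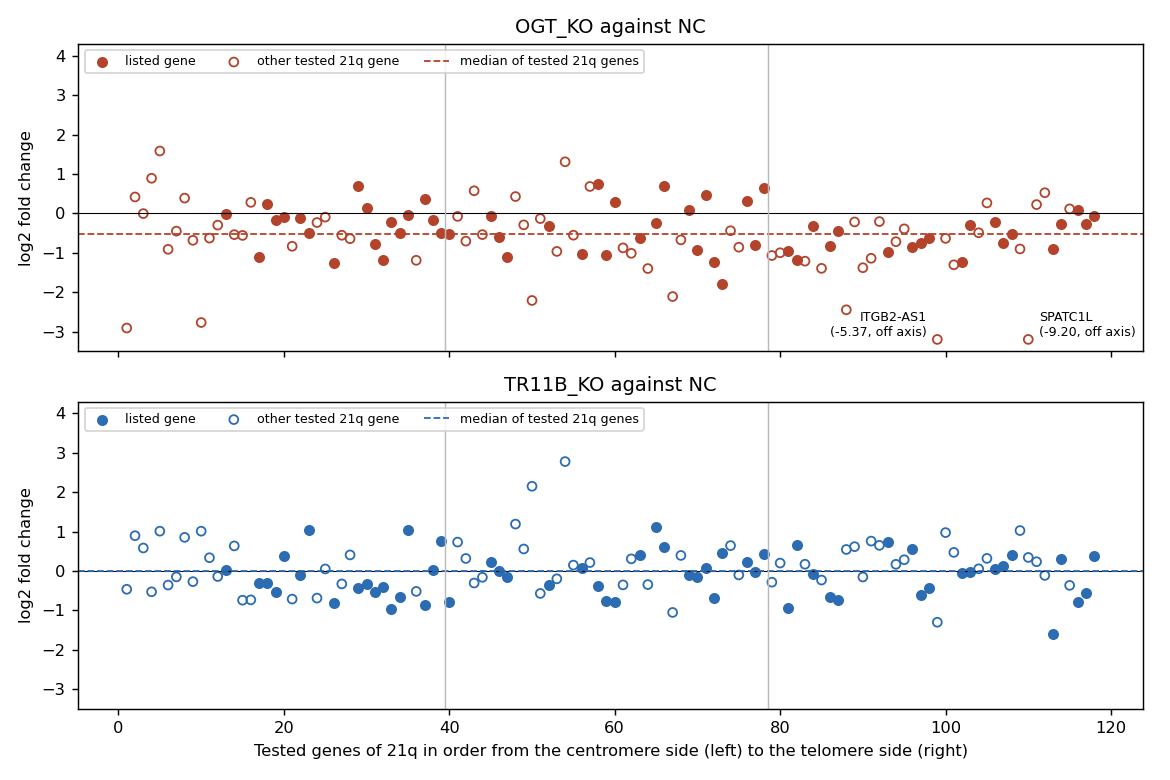
Log2 fold change (vertical axes) of the 118 tested 21q genes in their order along the arm (horizontal axis), in OGT_KO against NC (top) and TR11B_KO against NC (bottom). Filled points are the listed genes, dashed lines the medians of −0.52 and −0.01, and grey lines divide the arm into its 3 parts.

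More abundant listed genes lay further below NC, and over all tested genes the more abundant also had lower values. Of the 34 at a mean log2 CPM of 2 or more, 31 were below 0 in OGT_KO, with a median of −0.57 (all tested genes of that level −0.11). The 23 lower ones had a median of −0.12, where all tested genes under that level had 0.31. Scaled to gene length, the highest listed genes in NC were COL18A1 at 141.8 ± 0.78 FPKM (SD, n = 3), the collagen from which endostatin is cut, and SOD1 at 122.4 ± 6.29 FPKM. The lowest were SYNJ1, DYRK1A and BACH1, each under 0.07 FPKM. BACH1, a repressor of heme and antioxidant genes, was therefore scarcely measured, at 0.36, 0.57 and 0.23 CPM in NC and 0.18, 0.43 and 0.45 CPM in OGT_KO.

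Among the cytokine receptors, IL10RB is the shared chain of the receptors for IL-10, IL-22 and interferon lambda. It was at 26.3, 31.2 and 25.2 CPM in NC and at 12.2, 12.2 and 12.3 CPM in OGT_KO, a log2 fold change of −1.18 ± 0.26 (SE). The OGT_KO libraries lay close together and well below NC. IFNAR2, the high-affinity chain of the type I interferon receptor, was at 10.3, 10.7 and 8.92 CPM in NC and 5.53, 5.85 and 6.12 CPM in OGT_KO (−0.77 ± 0.26). IFNGR2, the signalling chain of the interferon gamma receptor, was at 61.8, 69.4 and 57.9 CPM in NC and 48.9, 44.8 and 39.7 CPM in OGT_KO (−0.50 ± 0.20). Neither overlapped NC. IFNAR1, the partner of IFNAR2, did overlap, at 2.39, 3.04 and 2.76 CPM in NC and 2.73, 2.34 and 1.95 CPM in OGT_KO (−0.22 ± 0.32).

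The 9 genes of metabolism and transport all had values below 0 in OGT_KO, with a median of −0.81, and 8 of them lay below NC without overlap, as did 25.6% of all tested genes. PDXK makes the cofactor pyridoxal phosphate. It was at 386.7, 359.1 and 387.6 CPM in NC and 174.3, 146.1 and 181.3 CPM in OGT_KO (−1.18 ± 0.21). SLC37A1, a sugar-phosphate exchanger, was low throughout, at 1.74, 1.58 and 1.43 CPM in NC and 0.91, 0.83 and 0.29 CPM in OGT_KO (−1.22 ± 0.41). SLC19A1, the reduced folate carrier, was at 236.4, 234.7 and 243.9 CPM in NC and 145.4, 126.2 and 153.6 CPM in OGT_KO (−0.75). SOD1, which removes superoxide in the cytosol, was at 114.7, 104.5 and 106.6 CPM in NC and 78.7, 77.2 and 73.7 CPM in OGT_KO (−0.51 ± 0.20). For each of these the lowest NC library stood above the highest OGT_KO library. HLCS, which attaches biotin to carboxylases, is an example of a further gene of this kind, at −1.03.

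RNA processing and ribosome assembly held the lowest and some of the highest values. WDR4, a subunit of the enzyme that methylates guanosine in tRNA, had the lowest fold change of the listed genes. It was at 147.5, 129.3 and 135.8 CPM in NC and 42.2, 37.7 and 39.5 CPM in OGT_KO, which is −1.79 ± 0.17. URB1, a nucleolar protein of large ribosomal subunit assembly, was at 79.0, 83.1 and 57.5 CPM in NC and 27.4, 33.0 and 31.3 CPM in OGT_KO (−1.26 ± 0.24). ADARB1, an editor of adenosine in RNA, was at 6.57, 5.20 and 4.37 CPM in NC and 2.89, 2.84 and 1.07 CPM in OGT_KO (−1.25 ± 0.33). All 3 genes were lower in every OGT_KO library than in any NC library. SON, a splicing cofactor of nuclear speckles, went the other way, at 20.7, 21.96 and 21.6 CPM in NC and 23.7, 33.2 and 26.4 CPM in OGT_KO (0.37 ± 0.20). The group median over its 9 genes was −0.90, and 6 lay below NC without overlap (25.6% of all tested genes).

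**Figure D4:**
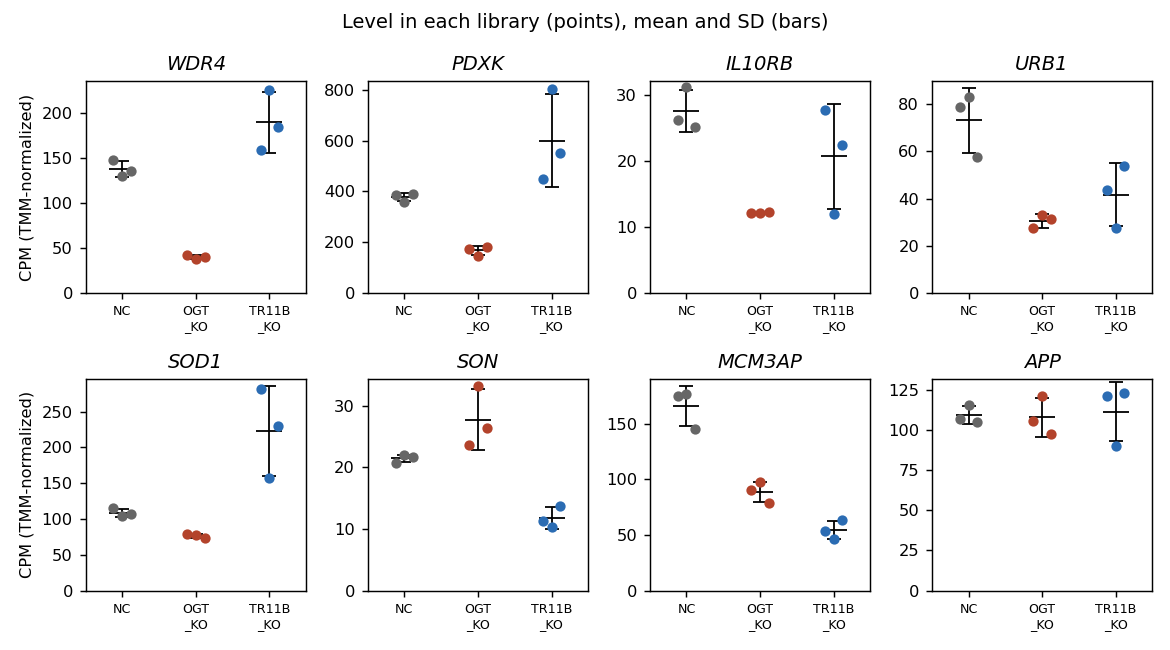
Level in CPM (vertical axes, TMM-scaled) of 8 listed genes in each library (points) of NC, OGT_KO and TR11B_KO, with the mean and SD of each group of 3. WDR4, PDXK, IL10RB, URB1, SOD1 and MCM3AP lie lower in every OGT_KO library than in NC, SON lies higher, and APP overlaps.

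Transcription factors and chromatin proteins stood nearer to 0, with a median of −0.24 over 11 genes. SETD4, a lysine methyltransferase, was at 7.00, 6.71 and 6.92 CPM in NC and 2.71, 3.15 and 3.67 CPM in OGT_KO (−1.12). N6AMT1, a methyltransferase, was at 2.44, 2.52 and 2.45 CPM in NC and 1.84, 0.74 and 0.83 CPM in OGT_KO (−1.11). Both were below NC in all libraries. PKNOX1, a homeodomain factor, overlapped NC at 2.46, 2.77 and 3.02 CPM against 2.58, 1.60 and 2.48 CPM (0.31). ZBTB21, a zinc finger protein, was under 1.3 CPM in every library and overlapped (0.47). The kinase DYRK1A also overlapped, at 2.41, 1.60 and 1.48 CPM in OGT_KO against 1.51, 1.62 and 1.38 CPM in NC (0.28).

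Genes of membrane traffic and of the ubiquitin system were mixed. APP was at 107, 115.5 and 105.3 CPM in NC and 105.5, 121.3 and 97.3 CPM in OGT_KO (−0.02), so that one of the more abundant listed genes overlapped NC fully. PTTG1IP, a membrane protein that binds securin, was at 226.3, 229.6 and 180.4 CPM in NC and 135.2, 148.5 and 131.3 CPM in OGT_KO (−0.62), with no overlap. GET1, which helps insert tail-anchored proteins into the endoplasmic reticulum, was at 1.31, 1.41 and 1.10 CPM in NC and 1.96, 1.96 and 2.33 CPM in OGT_KO (0.71). The lipid phosphatase SYNJ1 of endocytosis was at 0.57, 0.73 and 0.69 CPM in NC and 0.96, 1.13 and 1.14 CPM in OGT_KO (0.69). Both lay above NC, at low counts. The ubiquitin ligase TTC3 had the highest fold change, 0.75 ± 0.34, but overlapped NC at 3.59, 7.23 and 2.88 CPM against 2.03, 2.87 and 3.27 CPM, and its OGT_KO replicate 2 was the highest. The 5 genes of matrix, secretion and protease inhibition had a median of −0.31. In that group COL18A1 was at 944.9, 953.1 and 955.2 CPM in NC and 779.6, 819.9 and 840.6 CPM in OGT_KO (−0.23), a small difference with no overlap.

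Values for CBS and U2AF1 are uncertain, because the table also holds near-identical copies of them from the short arm and how shared reads were counted is not given in the sources used here. CBS, which joins homocysteine and serine in transsulfuration, was at 21.7, 20.1 and 17.66 CPM in NC and 11.1, 12.1 and 10.7 CPM in OGT_KO (−0.81). Summed with its copy, the log2 ratio of the group levels was −1.33. U2AF1, which binds the 3′ splice site, ranged from 1.51 to 5.77 CPM in NC and from 1.14 to 9.69 CPM in OGT_KO (0.65). Summed with its copy, that ratio was −0.27, so its sign depended on how such reads are assigned.

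Outside the list, the extreme 21q gene in OGT_KO was SPATC1L, with 982, 1041 and 994 counts for NC and 1, 1 and 3 for OGT_KO. It had 937, 1347 and 1067 counts in TR11B_KO, near NC. JAM2, a junctional adhesion molecule, was at 1.51, 1.41 and 1.38 CPM in NC and 0.30, 0.11 and 0.21 CPM in OGT_KO (−2.77). PWP2, a factor of small ribosomal subunit assembly, had −2.45, and is one of the genes with a copy on the short arm. ITGB2-AS1 (−5.37) and LOC105377134 (−2.91) rested on at most 21 counts in any library. The highest were CXADR, a virus receptor of cell junctions, at 1.58, CLDN14-AS1 at 1.31, USP25 at 0.89, PIGP at 0.68 and SLC5A3 at 0.57. Of these, CXADR and USP25 carried the only 2 higher calls in the fit among 118 21q genes, beside 35 lower calls. Over all tested genes 8.26% carried a higher and 10.1% a lower call. These counts describe the columns that chose the arm. CXADR and USP25 both lie near the centromere, and a link of the calls with position was not tested.

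Some neighbouring genes start back to back on opposite strands. There were 10 such pairs with tested genes, start sites under 1000 bases apart and at least 1 listed gene. In 2 of the 10 the neighbours lay on opposite sides of NC in every OGT_KO library. These were GART with SON and LL21NC02-21A1.1 with COL18A1. Of all tested genes taken singly, 25.6% lay below NC without overlap and 24.2% above. No share over pairs elsewhere was taken, so the 2 of 10 is only a description of the columns that chose the arm. Of the 10 pairs, 3 are shown because they hold WDR4 and TTC3, at the low and high ends of the listed genes, and SON. They were chosen after their values were seen. GART, an enzyme of purine synthesis, was at 116.8, 124.3 and 108.6 CPM in NC and 46.0, 55.5 and 51.6 CPM in OGT_KO (−1.19), while SON, 145 bases away, was at 0.37. PIGP and TTC3, 182 bases apart, had 0.68 and 0.75. WDR4 had −1.79 and LOC105372817, 172 bases away, −0.44 at under 1 CPM. The stretches between the start sites, from the GRCh38.p14 assembly and RefSeq start sites, are written 5′ to 3′ on the plus strand, with the listed motif matches in capitals. They lie at chr21:33542893-33543037, chr21:37073072-37073253 and chr21:42879540-42879711.
GART and SON: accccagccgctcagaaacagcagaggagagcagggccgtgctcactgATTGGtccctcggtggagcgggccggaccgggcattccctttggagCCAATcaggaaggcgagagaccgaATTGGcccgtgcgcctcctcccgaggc
PIGP and TTC3: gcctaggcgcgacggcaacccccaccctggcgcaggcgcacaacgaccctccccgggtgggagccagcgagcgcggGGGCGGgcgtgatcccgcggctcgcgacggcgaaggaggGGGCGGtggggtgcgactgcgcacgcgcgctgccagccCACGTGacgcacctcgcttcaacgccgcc
WDR4 and LOC105372817: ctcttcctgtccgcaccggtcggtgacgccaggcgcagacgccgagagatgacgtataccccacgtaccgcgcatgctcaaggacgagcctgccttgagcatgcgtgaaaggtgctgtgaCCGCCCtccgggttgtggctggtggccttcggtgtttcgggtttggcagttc
The motifs searched on both strands were the SP1 site GGGCGG, the ETS site CCGGAAGT, the box of letters CCAAT, the E-box of letters CACGTG and the TATA box, of letters TATAAA. Matches may overlap. The GART and SON stretch held 3 CCAAT matches, the PIGP and TTC3 stretch 2 SP1 matches and 1 E-box, and the WDR4 stretch 1 SP1 match. Their GC contents were 66.2%, 77.5% and 63.4%. Across the promoters of 48 listed genes found in RefSeq (250 bases before to 50 after the start), GGGCGG occurred in 66.7%, against 72.1% of the promoters of all tested genes and 44.6% of all promoters. CCAAT occurred in 31.2%, 36.7% and 35.7% of the same sets. CCGGAAGT occurred in 14.6%, 9.31% and 4.44%, the E-box in 5 of the 48, 10.3% and 7.43%, and the TATA box in 8.33%, 5.16% and 12%. A match describes the letters of these windows only.

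The fold changes of TR11B_KO against NC did not use the OGT_KO columns that chose the arm. The spread in the fit came from all 9 libraries, OGT_KO included, and the same NC libraries serve both comparisons. Changes in TR11B_KO were tested with edgeR's quasi-likelihood test and Benjamini-Hochberg adjustment over all 12574 genes. There the listed genes had a median of −0.10, near the −0.01 of all tested genes. Of the 57, 33 were below 0 (50.6% of all tested genes). The test called 14, which is 24.6%, against 27.6% of all tested genes. Of these, 9 fell and 5 rose, beside 14.3% and 13.2% of all tested genes, so the shares were near the background. A fit of only the 2 groups lost 7 of the 14 calls, with adjusted p from 0.0534 to 0.0778. In TR11B_KO replicate 2, 38 of the 57 lay below the NC mean, against 27 and 32 in the other two, and without that replicate the median was 0.04. The other 61 tested 21q genes had a median of 0.17, with 3 lower and 10 higher.

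The listed genes that fell in TR11B_KO were led by MCM3AP, a scaffold of the complex that carries mRNA to the nuclear pore. It was at 175.3, 177 and 145.2 CPM in NC and 53.8, 46.4 and 63.3 CPM in TR11B_KO (−1.61 ± 0.18, adjusted p = 8.43e-05). OGT_KO lay between them at 90.1, 97.3 and 79.2 CPM (−0.90). SON fell to 11.2, 10.3 and 13.7 CPM (−0.87 ± 0.20, adjusted p = 0.00623), below NC where OGT_KO was above it. MCM3AP and SON passed the test in all 20 alternatives tried. PCNT, a scaffold of the centrosome, was at 14.5, 17.5 and 14.8 CPM in NC and 8.38, 7.38 and 11.1 CPM in TR11B_KO (−0.80, adjusted p = 0.0146), and had 0.08 in OGT_KO. It did not pass without NC replicate 2 (−0.71, adjusted p = 0.0767).

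The calls of 3 genes of endocytic and nucleolar function were lost without single libraries, and that of ITSN1 also with the length offset. VPS26C, part of an endosomal recycling complex, was at 15.1, 20.1 and 16.3 CPM in NC and 11.9, 8.13 and 10.0 CPM in TR11B_KO (−0.77, adjusted p = 0.0164), but −0.65 (adjusted p = 0.0961) without NC replicate 2. ITSN1, a scaffold of clathrin-mediated endocytosis, was at 6.76, 6.05 and 6.29 CPM in NC and 4.21, 3.19 and 3.69 CPM in TR11B_KO (−0.78, adjusted p = 0.0172), but −0.74 (adjusted p = 0.0745) without NC replicate 1 and −0.82 (adjusted p = 0.0516) without NC replicate 2. With an offset for gene length in the fit ITSN1 had −0.57 (adjusted p = 0.0658), and −0.40 (adjusted p = 0.122) with offsets for length and GC content together. RRP1B, a nucleolar regulator, was at 27.2, 23.6 and 18.9 CPM in NC and 14.1, 7.13 and 15.03 CPM in TR11B_KO (−0.94, adjusted p = 0.0184), and did not pass without NC replicate 1 (−0.82, adjusted p = 0.0857) or 2 (−0.93, adjusted p = 0.0618). None of the 3 overlapped NC in TR11B_KO. OGT_KO values were −1.05, −0.52 and −0.95 for the same genes.

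URB1 fell to 43.6, 27.5 and 54.0 CPM (−0.81, adjusted p = 0.0196), and did not pass without NC replicate 1 (−0.76, adjusted p = 0.0766) or 2 (−0.71, adjusted p = 0.09). URB1 had −0.62 (adjusted p = 0.0616) under the length offset, and −0.49 (adjusted p = 0.0835) under both. IFNGR2 fell to 48.9, 28.8 and 41.4 CPM (−0.67, adjusted p = 0.0245) and IFNAR1 to 2.05, 1.29 and 0.82 CPM (−0.97, adjusted p = 0.0387). The call of IFNGR2 was lost without NC replicate 1 (−0.68, adjusted p = 0.0714), NC replicate 2 (−0.60, adjusted p = 0.107) or TR11B_KO replicate 3 (−0.70, adjusted p = 0.0549). That of IFNAR1 was lost without any single NC or OGT_KO library, with adjusted p from 0.0506 to 0.127, and without TR11B_KO replicate 3 (−0.70, adjusted p = 0.131). With the length offset IFNAR1 had −0.82 (adjusted p = 0.085), and with the GC offset IFNGR2 had −0.59 (adjusted p = 0.0533). IFNAR2 at −0.54 (adjusted p = 0.13) and IL10RB at −0.41 (adjusted p = 0.25) did not pass.

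The 5 listed genes that rose in TR11B_KO were SOD1, HMGN1, TMEM50B, PDXK and LRRC3. SOD1 reached 281.4, 157.4 and 230.1 CPM, a log2 fold change of 1.04 ± 0.20 (adjusted p = 0.00203). With an offset for gene length it was 0.40 (adjusted p = 0.174). Its gene length, worked back from the deposited counts and FPKM values, was 895 bases and is among the short ones. Across the listed genes Spearman's rho of the TR11B_KO fold change with length was −0.31, as over all tested genes (−0.31). HMGN1, a nucleosome-binding protein, was at 34.6, 30.8 and 32.3 CPM in NC and 108.1, 40.3 and 61.8 CPM in TR11B_KO (1.11 ± 0.27, adjusted p = 0.00925), with replicate 1 far above the others. With limma on log2(FPKM + 1) HMGN1 had 0.78 (adjusted p = 0.115) and TMEM50B, described next, 0.52 (adjusted p = 0.0583). TMEM50B, a membrane protein, was at 2.72, 3.93 and 3.73 CPM in NC and 9.19, 5.93 and 6.20 CPM in TR11B_KO (1.04, adjusted p = 0.0102), but did not pass without NC replicate 1 (0.89, adjusted p = 0.0649).

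PDXK reached 447.2, 801.9 and 550.4 CPM (0.67, adjusted p = 0.0261), and did not pass without NC replicate 1 (0.68, adjusted p = 0.0805), 2 (0.63, adjusted p = 0.104) or 3 (0.68, adjusted p = 0.0667). LRRC3, a protein with leucine-rich repeats, was at 6.28, 6.10 and 7.46 CPM in NC, 2.96, 4.50 and 2.60 CPM in OGT_KO and 9.14, 11.6 and 12.04 CPM in TR11B_KO (0.72, adjusted p = 0.04). Its call was lost without NC replicate 1 (0.69, adjusted p = 0.137), 2 (0.67, adjusted p = 0.147) or 3 (0.82, adjusted p = 0.0614), or OGT_KO replicate 1 (0.72, adjusted p = 0.061), and when TR11B_KO replicate 3 was left out (0.65, adjusted p = 0.115). With the GC offset LRRC3 had 0.48 (adjusted p = 0.188). WDR4 just missed the threshold at 159.2, 225.9 and 183.7 CPM in TR11B_KO (0.46 ± 0.17, adjusted p = 0.0544), with all 3 libraries above NC.

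For 5 listed genes every OGT_KO library lay below and every TR11B_KO library above the shared NC libraries, as for 3.48% of all tested genes. These 5 were SOD1, HMGN1, WDR4, PDXK and LRRC3. HMGN1 met this order narrowly, as its OGT_KO replicate 2 was at 30.71 CPM and its NC replicate 2 at 30.75 CPM. Its log2 fold change in OGT_KO was −0.24 ± 0.27 (SE). SON had the opposite order, as did 3.43% of all tested genes. The listed genes were lower in OGT_KO than in TR11B_KO with a median difference of −0.24 (log2), and 37 of 57 differences were below 0. All tested genes had a median difference of 0.06, with 5939 of 12574 below 0. For the other 61 genes the median difference was −0.76. With library totals alone as the scaling the median difference of the listed genes was −0.01. That scaling also moved the medians of all tested genes against NC, from 0.03 to 0.15 in OGT_KO and from −0.01 to −0.15 in TR11B_KO. The difference read against 0 thus depended on the scaling.

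Genes outside 21q that work with the listed ones were called in both directions. The shares of all tested genes to set beside each list are 10.1% lower and 8.26% higher in OGT_KO, and 14.3% lower and 13.2% higher in TR11B_KO. In OGT_KO, 5 of 12 tested partners of the interferon receptors were lower and 2 higher by the edgeR test, with a median of −0.14. USP18, which blocks signalling at IFNAR2, fell by 2.13 on the log2 scale (adjusted p = 0.00057), and the feedback inhibitors SOCS3 (−1.11, adjusted p = 0.000861) and SOCS1 (−1.09, adjusted p = 0.00215) fell as well. STAT2, a subunit of the factor that type I interferon activates, fell in both knockouts, by 0.87 in OGT_KO (adjusted p = 0.0186) and by 0.84 in TR11B_KO (adjusted p = 0.0158). In TR11B_KO, 4 of the 12 fell and 1 rose, among them the kinase JAK1 (−1.08, adjusted p = 0.0025) and IL22RA1, the partner chain of IL10RB for IL-22 (2.75, adjusted p = 0.000408). IL22RA1 was also called higher in OGT_KO (1.48, adjusted p = 0.0195), and rested on 11, 10 and 12 counts in NC. STAT2 did not pass without NC replicate 1 or 2, nor in OGT_KO without OGT_KO replicate 1 or 3, with a highest adjusted p of 0.0911 in OGT_KO (−0.80) and 0.0659 in TR11B_KO (−0.80). The other genes named here passed with any 1 library left out, apart from IL22RA1 in OGT_KO. The list's counts moved with 1 library left out, to 3 to 5 lower and 0 to 3 higher in OGT_KO. It had 3 lower without NC replicate 1 or 2 or OGT_KO replicate 1 or 3, and 0 higher without NC replicate 1, NC replicate 2 or OGT_KO replicate 1. In TR11B_KO they moved to 2 to 5 lower (2 without NC replicate 1 or 2) and 1 to 2 higher (2 without TR11B_KO replicate 2).

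Genes that respond to interferon were counted apart from the receptors' partners. Of 20 tested genes of the type I interferon response, 0 were lower and 2 higher in OGT_KO (median 0.24), and 1 was lower and 4 higher in TR11B_KO (median 0.35). IFITM3, which restricts virus entry, rose by 0.90 in OGT_KO (adjusted p = 0.00566) and fell by 0.90 in TR11B_KO (adjusted p = 0.00412). HERC5, the ligase for ISG15, rose in OGT_KO (1.56, adjusted p = 0.0152), and in TR11B_KO IRF7 (1.63, adjusted p = 0.00048), IFI6 (1.55, adjusted p = 0.000335) and ISG15 (1.16, adjusted p = 0.00406) rose. Of 8 tested genes of the interferon gamma response, 1 was lower and 0 higher in OGT_KO, the peptide transporter subunit TAP2 (−0.65, adjusted p = 0.0108). In TR11B_KO 3 were lower and 3 higher, with PSMB10 of the immunoproteasome at 1.01 (adjusted p = 0.0012). With the length offset those 3 higher calls became 0, PSMB10 had 0.39 (adjusted p = 0.0842) and ISG15 0.40 (adjusted p = 0.223). HERC5 did not pass without NC replicate 1, NC replicate 3 or OGT_KO replicate 2 (highest adjusted p = 0.0839, at 1.28), nor TAP2 without NC replicate 1 or OGT_KO replicate 2 (highest adjusted p = 0.0624, at −0.58). Without NC replicate 1 or 2, 1 gene of the interferon gamma list was higher in TR11B_KO, and without TR11B_KO replicate 2, 2 were lower in OGT_KO. Calls of the type I list in TR11B_KO were 2 lower without NC replicate 3 or TR11B_KO replicate 1.

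Genes around SOD1, BACH1 and CBS gave a further set of values. Of 12 tested genes that remove superoxide and peroxide, 0 were lower and 2 higher in OGT_KO, PRDX2 (1.53, adjusted p = 0.000171) and GPX4 (0.74, adjusted p = 0.00418). In TR11B_KO 8 of the 12 rose and 0 fell, including the peroxiredoxins PRDX4 (1.22, adjusted p = 0.000313) and PRDX2 (1.14, adjusted p = 0.000994). These are short transcripts, with a median length of 1165 bases against 3965 for all tested genes. With the length offset 2 of the 12 rose and 3 fell in TR11B_KO, and PRDX2 there had 0.50 (adjusted p = 0.0536). Without TR11B_KO replicate 2, 1 was lower and 4 higher in OGT_KO, and without TR11B_KO replicate 1, 2 fell in TR11B_KO. Of 14 shared targets of BACH1 and NRF2, 1 was lower and 2 higher in OGT_KO, and 3 fell and 0 rose in TR11B_KO. Without TR11B_KO replicate 2 these counts were 2 and 5 in OGT_KO and 4 and 2 in TR11B_KO. Without any single NC or OGT_KO library, or TR11B_KO replicate 3, 1 was higher in OGT_KO, and without any single NC library or TR11B_KO replicate 3, 2 fell in TR11B_KO. With both offsets 1 was lower and 4 higher in OGT_KO, and 7 fell and 0 rose in TR11B_KO. NQO1, a quinone reductase, fell in both (−0.88, adjusted p = 0.00346, and −1.02, adjusted p = 0.00107). The heme transporter SLC48A1 rose in OGT_KO (1.07, adjusted p = 0.000427) and fell in TR11B_KO (−0.96, adjusted p = 0.000714).

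In the folate, methionine and transsulfuration list, 2 of 15 fell and 0 rose in each knockout, beside 10.1% of all tested genes lower in OGT_KO and 14.3% in TR11B_KO. Without TR11B_KO replicate 2, 6 fell and 2 rose in OGT_KO, and 3 fell and 1 rose in TR11B_KO. Without TR11B_KO replicate 1, 5 fell in TR11B_KO. Without NC replicate 1 or 2, 0 fell in OGT_KO and 1 in TR11B_KO, and without OGT_KO replicate 1 or 3, 0 fell in OGT_KO. MAT2A, which makes the methyl donor S-adenosylmethionine, fell in both (−0.63, adjusted p = 0.0103, and −0.54, adjusted p = 0.0152). SHMT1 fell in OGT_KO (−0.55, adjusted p = 0.033) and MTRR in TR11B_KO (−1.78, adjusted p = 0.00111). Of 10 tested genes of calcineurin and NFAT signalling, which RCAN1 and DYRK1A restrain, 0 fell and 2 rose in OGT_KO. These were NFAT5 (1.24, adjusted p = 0.00667) and PPP3CC (0.76, adjusted p = 0.0249). In TR11B_KO 3 fell and 1 rose, with NFAT5 among the falls (−0.83, adjusted p = 0.0423). The list's counts ranged from 0 to 2 lower and 1 to 3 higher in OGT_KO, and from 1 to 4 lower and 0 to 1 higher in TR11B_KO, with 1 library left out. In OGT_KO the most falls came without TR11B_KO replicate 2, and the most rises without TR11B_KO replicate 1 or 2. For the falls in TR11B_KO, the highest count came without TR11B_KO replicate 1. In TR11B_KO, 1 fell without any single NC library, OGT_KO replicate 1 or 3 or TR11B_KO replicate 3, and 0 rose without NC replicate 1 or 2 or TR11B_KO replicate 3. Several of the calls of both lists depended on 1 library. MAT2A did not pass without NC replicate 1 or 2 in either knockout, nor in OGT_KO without OGT_KO replicate 1 or 3 (highest adjusted p = 0.0665). SHMT1 did not pass without any single NC or OGT_KO library (up to 0.118, at −0.54). PPP3CC in OGT_KO did not pass without NC replicate 1, NC replicate 2 or any single OGT_KO library (up to 0.144, at 0.63). NFAT5 in TR11B_KO did not pass without NC replicate 1 or 2, OGT_KO replicate 1 or 3, or TR11B_KO replicate 3 (up to 0.219, at −0.57). RCAN1 itself had −0.07 in OGT_KO and 0.23 in TR11B_KO (adjusted p = 0.566).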

How the data were processed

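RNA-seq of 9 A549 libraries was analysed from the deposited tables. The authors' deposited count table holds whole reads per gene without normalization, and the deposited FPKM table holds values that the authors normalized by gene length and depth. GRCh38, fastp, HTSeq, HISAT, DESeq2 and R 3.2.0 are named, per the submitters' processing notes, with no role or setting. All 9 sample columns were mapped by name to the labels, and 0 columns were left unused.

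The main model was edgeR 4.0.16 under R 4.3.3 (filterByExpr, TMM, robust quasi-likelihood F test), with 1 mean per group over the 9 libraries, and was tested on simulated data. P-values were adjusted over all 12574 tested genes and called at 0.05. CPM uses TMM-scaled totals, and SE is the absolute log2 fold change over the square root of F. At 38327508 to 42245970 counts per library, counting error is small except for genes under about 1 CPM. Positions came from RefSeq (GRCh38.p14), which matched 18561 gene names, and GC content from GENCODE transcripts. Gene length was worked back from the deposited counts, FPKM values and library totals, and is not a measured transcript length.

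The listed genes and the partner lists were chosen with earlier results of these data known. Because the arm was picked in OGT_KO, no p-values are given for 21q genes there. Their calls in the fit over all genes are counted as a description only. Named were the targeted genes, the cytokine receptors, APP, SOD1, the 8 lowest and 8 highest listed genes in OGT_KO, up to 8 genes called per direction in TR11B_KO, the 4 most abundant, untested genes, 5 and 5 other 21q genes, and up to 4 called genes per partner list. Others are examples.

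Alternatives were DESeq2 1.42.0, RLE factors, library totals as the only scaling, no filter on counts, a threshold of CPM 1 in 3 libraries, only the 2 groups compared, the replicate block, offsets for gene length and GC content (the GC offset and both offsets together were chosen after seeing the data), limma 3.58.1 on log2(FPKM + 1), and each library left out.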

Additional observations from a re-analysis of the deposited data

Results flagged for a closer look

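For 6 listed genes, all 3 libraries of one knockout lay above and all 3 of the other lay below the NC libraries. The difference between the knockouts was not tested, because the arm was picked in OGT_KO. WDR4 had the widest such difference, OGT_KO minus TR11B_KO, at −2.25 on the log2 scale. PDXK had −1.84, LRRC3 −1.70, SOD1 −1.54 and HMGN1 −1.35. In SON the order was the opposite, with 1.24. HMGN1 lay below NC in OGT_KO only narrowly, at a log2 fold change of −0.24 ± 0.27 (SE). Of all tested genes, 3.48% had OGT_KO below and TR11B_KO above NC, and 3.43% the opposite.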

How the results depend on the processing

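The 21q median in OGT_KO was the lowest of the arms under every setting for which arms were recomputed. All these settings used the OGT_KO columns for which the arm was picked, so the rank is a description and not a separate check. The 21q median was −0.40 with library totals alone, where the median of all tested genes was 0.15 in place of 0.03. It was −0.61 with the length offset and −0.68 for genes at a mean log2 CPM of 2 or more. The listed genes' median in OGT_KO was −0.32 with library totals alone and −0.11 with limma on log2(FPKM + 1), where low genes are compressed by the pseudocount. The other 21q genes gave −0.45 and −0.17 under the same settings, −0.60 with the CPM filter and −0.65 with the length offset. The median difference between the knockouts was −0.008 with library totals alone, reversed to 0.013 with limma on FPKM and was −0.38 with both offsets. With library totals alone the medians of all tested genes against NC had moved as well, to 0.15 in OGT_KO and −0.15 in TR11B_KO.

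Listed genes called lower in OGT_KO numbered 10 with library totals alone, 11 with limma on FPKM and 28 with only the 2 groups compared, which also called 3 higher. In TR11B_KO, 9 were called higher with DESeq2, 3 with only the 2 groups, 3 with the replicate block and 2 with limma on FPKM, and 4 lower with only the 2 groups. That fit called 5095 genes in OGT_KO, 2251 in TR11B_KO and 41 partner genes in OGT_KO. The main fit called 2303 of all tested genes in OGT_KO and 3469 in TR11B_KO. Calls over all genes thus moved with the setting as well. The counts of listed genes per setting have no background share beside them here and are not read against one. SLC19A1 in TR11B_KO reversed to −0.41 with the GC offset (adjusted p = 0.00573), and ISG15 in TR11B_KO to −0.086 with both offsets (adjusted p = 0.619). The causes were not tested.

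Leaving out 1 library at a time gave 8 to 25 listed genes called lower and 0 to 1 higher in OGT_KO, and 2 to 12 lower and 2 to 9 higher in TR11B_KO. Over all genes it gave 1072 to 4536 calls in OGT_KO and 1813 to 4463 in TR11B_KO, and over the partner lists 9 to 37 and 21 to 43. The other 21q genes' median in OGT_KO ranged from −0.65 to −0.55, and the median difference between the knockouts from −0.43 to −0.14.

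Replicate numbers did not pair the samples (correlations of same-numbered deviations −0.20 to 0.07), and the replicate block gave 15 listed genes called lower in OGT_KO and 9 in TR11B_KO. These counts also have no background share beside them and are not read against one. Depth limits genes under about 1 CPM, such as BACH1, SYNJ1 and ZBTB21. DNA copy number was not measured, and each knockout is 1 named set of columns.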
